A study of Mus musculus with 37 samples.

Results

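The 10 genes described here are inflammatory cytokines, chemokines and feedback inhibitors of the NF-kB pathway, with the prostaglandin enzyme gene Ptgs2. They were chosen by symbol (Il1b, Il6, Tnf, Cxcl1, Cxcl2, Ccl2, Ccl3, Nfkbia, Tnfaip3 and Ptgs2) from a table of 24421 gene symbols, and all 10 were present and passed the filter on low counts. The RNA came from whole lung tissue of 37 C57BL/6 mice of both sexes, with 1 library per mouse. In bulk tissue, fewer cells of a type and less RNA per cell cannot be told apart.

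The silicon group held 7 mice exposed to 0.75 Gy of silicon ions at 300 MeV per nucleon. The silicon + NR group held 6 mice given the same exposure and nicotinamide riboside (NR, a precursor of NAD) at 12 mM in their drinking water from before the exposure onward. The GCR group held 7 mice exposed to 0.75 Gy of a simplified simulation of galactic cosmic rays that mixes 5 ions. The gamma group held 5 mice exposed to 0.75 Gy of gamma rays. The mock + NR group held 5 mice at 0 Gy with 12 mM NR, and the mock group held 7 mice at 0 Gy without it. Neither the age of the mice nor the time between exposure and tissue collection is stated in the labels.

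NF-kB is a family of transcription factors held in the cytoplasm by inhibitor proteins and released to the nucleus when cells sense cytokines, microbial products or DNA damage. Its targets include cytokines and chemokines that recruit leukocytes, and also its own inhibitors, so that the response shuts itself off. In lung, resident macrophages, recruited neutrophils and monocytes, endothelium and epithelium all make products of this pathway.

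NF-kB proteins bind short DNA sites, and the letters just before the start of 4 genes are shown because they hold the kappa B consensus, a 10-base motif searched by its IUPAC form on both strands. The RefSeq promoter table (GRCm38.p6) held 9 of the 10 genes, all except Ccl2. Of these 9, 5 (Il6, Cxcl1, Cxcl2, Nfkbia and Tnfaip3) had a match within the 250 bases upstream of a RefSeq start, against 7.25% of all 32851 promoters in that table. The 9 genes had 10 promoters there, so a share of genes stands beside a share of promoters. Il1b, Tnf, Ccl3 and Ptgs2 had none in that window. Tnfaip3 had matches before 1 RefSeq start and 0 before its other one. Those matches lie inside its GENCODE gene (chr10:19000910-19015657), not upstream of the GENCODE start, so Tnfaip3 is not printed. The sequences read 5′ to 3′ on the gene's own strand, the capitals mark the match, and in Cxcl1 and Cxcl2 the capitals span overlapping matches on both strands.
Cxcl1, chr5:90891159-90891228, plus strand: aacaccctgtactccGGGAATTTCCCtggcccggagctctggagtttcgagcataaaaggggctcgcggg
Cxcl2, chr5:90903787-90903856, plus strand: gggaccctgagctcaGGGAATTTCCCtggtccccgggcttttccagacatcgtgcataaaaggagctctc
Il6, chr5:30013055-30013113, plus strand: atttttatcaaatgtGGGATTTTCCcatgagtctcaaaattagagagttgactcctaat
Nfkbia, chr12:55492648-55492716, minus strand: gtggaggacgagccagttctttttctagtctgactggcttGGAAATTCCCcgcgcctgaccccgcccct
Cxcl1 and Cxcl2, neighbours on chromosome 5, have the same 11 capital letters. A match in these letters is a description and not evidence of binding.

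The deposited values are read counts per gene, and levels are given as counts per 1000000 reads of a library (CPM). Fold changes were fitted on counts scaled by edgeR's TMM factors, with sex in the model. CPM levels have neither adjustment, so ratios and overlaps of CPM can differ from the fitted changes in size or sign. Library totals ran from 9485197 to 66381526 counts, both ends in the GCR group. Epithelial markers of lung (9 genes, surfactant genes included) summed to between 32372 and 315804 CPM per library. Several libraries held much RNA of muscle genes, and the labels do not state its source. Of these, 13 had over 1000 CPM of the skeletal muscle gene Acta1 (5 silicon, 2 silicon + NR, 0 GCR, 0 gamma, 2 mock + NR and 4 mock), and 2 gamma libraries had over 10000 CPM of the atrial gene Nppa. The ribosomal precursor Rn45s exceeded 100000 CPM in 3 GCR libraries and 1 mock library. Those GCR libraries (replicates 2, 5 and 6) had totals of 17433007, 16585139 and 9485197 counts, and that mock library (replicate 4) had 18232729. Every other library had at least 24878642 counts, so high Rn45s and low depth cannot be told apart here. The lymphoid chemokine gene Ccl19 exceeded 100 CPM in silicon replicates 3 and 6 and in mock + NR replicate 4. These are called muscle-rich, heart-rich, high-Rn45s and lymphoid-rich, and the main tests use all 37 libraries.

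Ptgs2 (COX-2, the inducible enzyme that starts prostaglandin synthesis from arachidonic acid) was higher after GCR than after mock exposure, and it was the 1 gene of the 10 to pass the test in any comparison. A gene passed at an adjusted p under 0.05 by edgeR's quasi-likelihood test with Benjamini-Hochberg adjustment over 16977 genes. In GCR against mock, 1 of 10 genes (10%) passed, against 16.6% of all genes tested. The share among the 10 was thus no higher than the background. Across the 10 the median log2 fold change was 0.27, against -0.06 over all genes tested.

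Ptgs2 (chr1:150100031-150108227, plus strand, GRCm38) had 8.12 CPM at the lowest, 21.6 at the median and 39.4 at the highest in GCR lungs. In mock lungs the lowest, median and highest were 2.63, 7.22 and 12.9 CPM. Of the 7 GCR libraries, 5 lay above the highest mock library, so the groups overlapped. Ptgs2 rose by a log2 fold change of 1.87 (SE 0.38, n = 7 each, adjusted p = 0.00631 by edgeR's quasi-likelihood test).

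The muscle content of the libraries moved with this comparison. The 12 skeletal muscle markers summed to between 43.9 and 125 CPM in GCR lungs, with a median of 56.9, and to between 28.6 and 50162 CPM in mock lungs, with a median of 11769. Among the 24 libraries that were not muscle-rich, Ptgs2 ran from 8.12 to 39.4 CPM in 7 GCR libraries and from 7.22 to 12.9 CPM in 3 mock libraries. That fit gave a log2 fold change of 1.50 (SE 0.48) with an adjusted p of 0.16 by edgeR's quasi-likelihood test, and in it 0 genes of the whole table passed in this comparison. Without the 4 high-Rn45s libraries the log2 fold change was 1.93 (SE 0.43) with an adjusted p of 0.151, again with 0 genes passing; DESeq2 and limma voom were not run without these libraries. In these fits the size of the Ptgs2 difference was 1.50 or more on the log2 scale, but the call was lost.

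After gamma rays Ptgs2 had 27.2, 19.8, 9.47, 10.7 and 17.4 CPM, against the mock range of 2.63 to 12.9 CPM. The 3 gamma libraries that were not heart-rich lay above every mock library, and the 2 heart-rich ones (9.47 and 10.7 CPM) lay within the mock range. The log2 fold change was 1.20 (SE 0.40), which did not pass (adjusted p = 0.263 by edgeR's quasi-likelihood test; 0.0228 by limma voom). In silicon lungs the lowest, median and highest were 3.10, 8.84 and 17.02 CPM, with a log2 fold change of 0.45 (SE 0.37) that did not pass. It was -0.33 without the muscle-rich libraries, which leaves 3 mock and 2 silicon libraries. Those 2 had 13.7 CPM and, in the lymphoid-rich replicate 3, 3.10 CPM. The mean of silicon, GCR and gamma exceeded mock by 1.17 (log2, SE 0.33, adjusted p = 0.131 by the same edgeR test), and DESeq2 called this difference (adjusted p = 0.0224). Whether the radiation kinds differ from each other in Ptgs2 was not tested.

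With NR, Ptgs2 had a lowest, median and highest level of 5.24, 10.9 and 19.7 CPM in silicon + NR lungs. It had 13.2, 3.15, 9.995, 11.5 and 17.6 CPM in mock + NR lungs. Both groups overlapped each other and the mock range. In order of the median, the level ran from GCR (21.6 CPM) and gamma (17.4 CPM) through mock + NR (11.5 CPM), silicon + NR (10.9 CPM) and silicon (8.84 CPM) to mock (7.22 CPM), and each group overlapped its neighbour in this order.

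**Figure D1:**
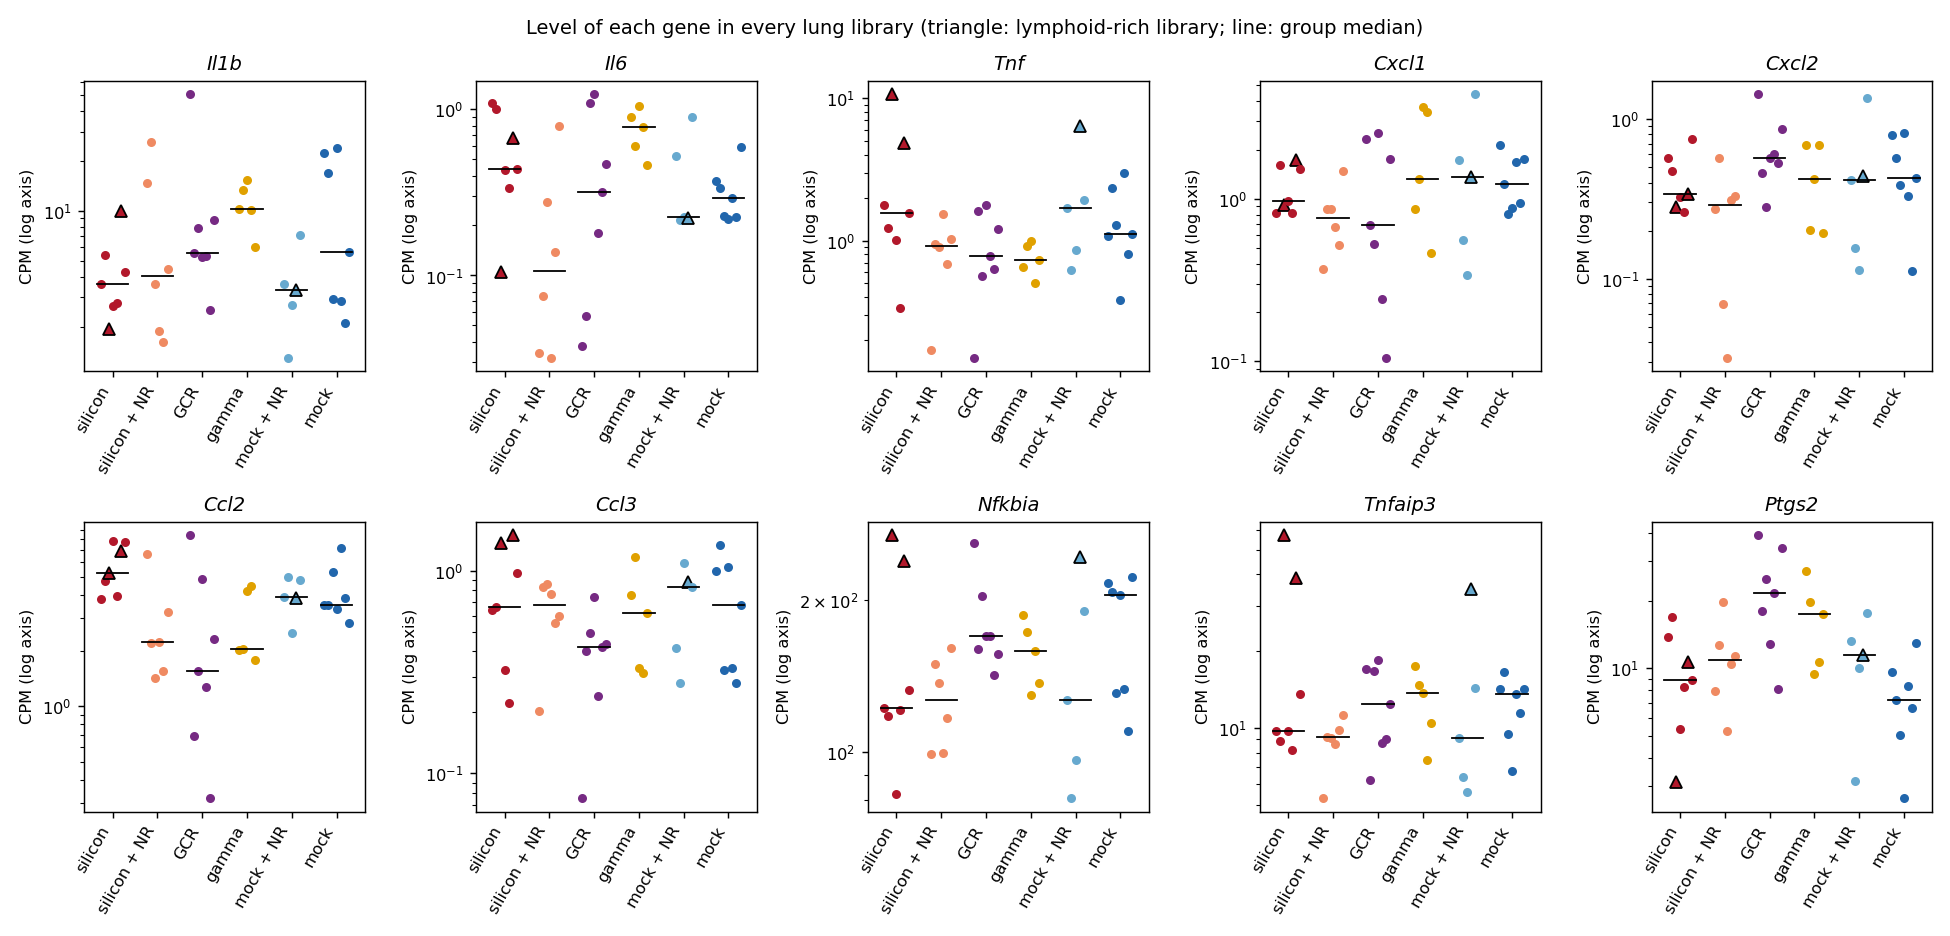
Level of each of the 10 genes in every library, in CPM on a log axis, by group, with a line at the group median and triangles for the 3 lymphoid-rich libraries. Ptgs2 is highest in the GCR group (median 21.6 CPM against 7.22 CPM in mock), and Tnf and Tnfaip3 are highest in the triangles.

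Among the cytokines, Il1b, the interleukin-1 beta gene (chr2:129364570-129371139, minus strand), varied more between mice than between groups. It had a lowest, median and highest level of 2.53, 5.56 and 50.4 CPM in GCR lungs. In mock lungs these were 2.10, 5.65 and 23.8 CPM. The highest GCR library stood alone, since the other 6 lay within the mock range, and the log2 fold change of 0.56 (SE 0.62) did not pass.

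Gamma lungs had 10.3, 13.3, 15.4, 10.1 and 6.00 CPM of Il1b, all within the mock range. Silicon lungs ran from 1.94 to 9.92 CPM with a median of 3.61, and silicon + NR lungs from 1.62 to 25.9 CPM with a median of 4.04. Mock + NR lungs had 3.62, 1.30, 2.71, 3.31 and 7.17 CPM, with a log2 fold change of -1.32 against mock (SE 0.72, adjusted p = 0.369 by edgeR's quasi-likelihood test). None of these differences passed. The exons of Il1b overlap those of Il1bos on the opposite strand, and the library kit does not mark strand, so reads of the pair cannot be told apart there.

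Il6, an interleukin that drives the acute phase response, was close to the limit of these libraries, with 1 to 82 reads per library (median 10). Gamma lungs had 0.901, 0.603, 1.05, 0.782 and 0.462 CPM, against a lowest, median and highest of 0.219, 0.293 and 0.596 CPM in mock lungs. Of the 5 gamma libraries, 4 lay above the highest mock library. A log2 fold change of 1.22 (SE 0.60, unadjusted p = 0.0499, adjusted p = 0.499 by edgeR's quasi-likelihood test) did not pass.

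Il6 in silicon + NR lungs had a lowest, median and highest of 0.0320, 0.107 and 0.793 CPM, against 0.106, 0.439 and 1.10 CPM in silicon lungs. Its log2 fold change was -1.46 (SE 0.60, unadjusted p = 0.0213, adjusted p = 0.301 by edgeR's quasi-likelihood test). In the 6 silicon + NR libraries, 3 lay below every silicon library. GCR lungs spread over the widest range, from 0.0376 to 1.24 CPM, with 2 libraries above and 3 below the whole mock range.

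Tnf encodes tumour necrosis factor, a cytokine that both activates NF-kB and is induced by it, and its level followed the lymphoid-rich libraries. Those 3 had 10.7, 4.89 and 6.44 CPM (silicon replicates 3 and 6 and mock + NR replicate 4), against 0.151 to 2.999 CPM in the other 34. All 3 lay above every other library.

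In silicon lungs Tnf had a lowest, median and highest of 0.334, 1.57 and 10.7 CPM, against 0.384, 1.11 and 2.999 CPM in mock lungs. The log2 fold change of 1.16 (SE 0.55, unadjusted p = 0.0419, adjusted p = 0.361 by edgeR's quasi-likelihood test) did not pass, and it was -0.10 (SE 0.48) without the lymphoid-rich libraries. Silicon + NR lungs ran from 0.170 to 1.53 CPM with a median of 0.922. Against silicon this gave -1.73 (log2, SE 0.59, adjusted p = 0.181 by the same edgeR test), and -0.51 (SE 0.49) without the lymphoid-rich libraries. The T cell markers (9 genes measured) summed to 874, 455 and 480 CPM in the 3 lymphoid-rich libraries, against a median of 38.3 CPM over all 37.

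The neutrophil-attracting chemokines Cxcl1 and Cxcl2 gave 1 to 169 and 1 to 42 reads per library. Cxcl1 ran from 0.105 CPM in a GCR library to 4.42 CPM in a mock + NR library, and its group medians lay between 0.688 CPM in GCR and 1.36 CPM in mock + NR. Cxcl2 ran from 0.0320 CPM in a silicon + NR library to 1.43 CPM in GCR replicate 1, with group medians between 0.291 CPM in silicon + NR and 0.572 CPM in GCR. For both genes each group overlapped its comparison group in all 6 comparisons of group pairs, and none passed.

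Ccl2, a chemokine that attracts monocytes, had a lowest, median and highest of 1.42, 2.22 and 6.64 CPM in silicon + NR lungs. In silicon lungs these were 3.82, 5.28 and 7.80 CPM. Of the 6 silicon + NR libraries, 5 lay below every silicon library. The log2 fold change was -1.03 (SE 0.49, unadjusted p = 0.042, adjusted p = 0.368 by edgeR's quasi-likelihood test), which did not pass, while limma voom with sample quality weights called it (-1.46, SE 0.28, adjusted p = 0.00198) and also called 4207 genes of the whole table in that comparison. DESeq2 did not call it (adjusted p = 0.272). Ccl2 had a median of 5.04 CPM in the 13 muscle-rich libraries and 2.65 CPM in the other 24, and 2 of 6 silicon + NR libraries, the highest one included, and 5 of 7 silicon libraries were muscle-rich. Without the muscle-rich libraries the log2 fold change was -0.90 (SE 0.80, adjusted p = 0.736 by the same edgeR test), and the part of muscle content in the difference was not tested further.

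Ccl2 in GCR lungs ran from 0.316 to 8.46 CPM with a median of 1.55, against 2.81 to 7.17 CPM with a median of 3.55 in mock lungs. Here 5 of 7 GCR libraries lay below every mock library and 1 lay above. For Ccl2, GCR against mock had a log2 fold change of -0.36 (SE 0.45), which did not pass. Of those 5 low GCR libraries, 3 (replicates 2, 5 and 6, with 0.688, 1.27 and 0.316 CPM) were high in Rn45s and low in depth. They held 12, 21 and 3 reads of Ccl2. Ccl2 had a median of 0.977 CPM in the 4 high-Rn45s libraries and 3.87 CPM in the other 33, and the part of depth was not tested. The sign turned without the high-Rn45s libraries (0.19, SE 0.46) and without the muscle-rich libraries (0.10, SE 0.63), of which the GCR group held 0 and the mock group 4. Without GCR replicate 1, the highest GCR library, the log2 fold change was -1.24 (SE 0.42, adjusted p = 0.0521 by edgeR's quasi-likelihood test).

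Ccl3, a macrophage inflammatory chemokine, had 2 to 49 reads per library and ran from 0.0752 to 1.50 CPM. Its lowest log2 fold change against mock was -0.60 (SE 0.46) in GCR, which did not pass.

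Of the 2 feedback inhibitors, Nfkbia had the most reads of the 10 genes (median 3968), while Tnfaip3 (median 292) had fewer than Ptgs2 (median 316). Nfkbia encodes I kappa B alpha, the inhibitor that holds NF-kB in the cytoplasm and that NF-kB induces again. It had 1346 to 11274 reads per library and was the most abundant of the 10 per length, with a mean of 109 ± 29.8 CPM per kilobase of exon in mock lungs (SD, n = 7), against 0.133 ± 0.0552 for Il6, the lowest. Between these, mock means per kilobase were 5.73 for Il1b, 3.71 for Ccl2, 1.70 for Tnfaip3, 1.64 for Ptgs2, 0.931 for Ccl3, 0.874 for Tnf, 0.722 for Cxcl1 and 0.238 for Cxcl2.

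Nfkbia group medians ran from 122 CPM in silicon to 205 CPM in mock, and all groups overlapped. The lowest, median and highest were 142, 170 and 260 CPM in GCR lungs, against 110, 205 and 222 CPM in mock lungs. With a log2 fold change of 0.28 (SE 0.22), Nfkbia did not pass. The fitted change was positive although the GCR median CPM lay below the mock median, and the mean CPM was 180 in GCR and 175 in mock lungs. Silicon lungs ran from 82.6 to 269 CPM (median 122), with a log2 fold change of -0.16 (SE 0.22), and gamma lungs had 187, 173, 130, 159 and 137 CPM, all within the mock range. Silicon + NR lungs ran from 99.0 to 161 CPM (median 127) and mock + NR lungs from 80.8 to 244 CPM (median 127), with none of the comparisons passing.

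Tnfaip3 encodes A20, a ubiquitin-editing enzyme that ends signalling from the tumour necrosis factor receptor and Toll-like receptors. The 3 lymphoid-rich libraries had 57.2, 38.7 and 35.2 CPM, against 5.29 to 18.5 CPM in the other 34, so they stood apart from all others. In silicon lungs its lowest, median and highest were 8.17, 9.71 and 57.2 CPM, against 6.75, 13.6 and 16.6 CPM in mock lungs. The log2 fold change of 0.78 (SE 0.35, adjusted p = 0.328 by edgeR's quasi-likelihood test) did not pass and was -0.20 (SE 0.22) without the lymphoid-rich libraries. The silicon median lay below the mock median although the fitted change was positive.

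In silicon + NR lungs Tnfaip3 ran from 5.29 to 11.2 CPM with a median of 9.19. Against silicon the log2 fold change was -1.16 (SE 0.37, adjusted p = 0.147 by edgeR's quasi-likelihood test), and -0.22 (SE 0.22) without the lymphoid-rich libraries. GCR lungs ran from 6.25 to 18.5 CPM (median 12.4), and 3 of the 7 lay above every mock library, with a log2 fold change of 0.27 (SE 0.35).

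**Figure D2:**
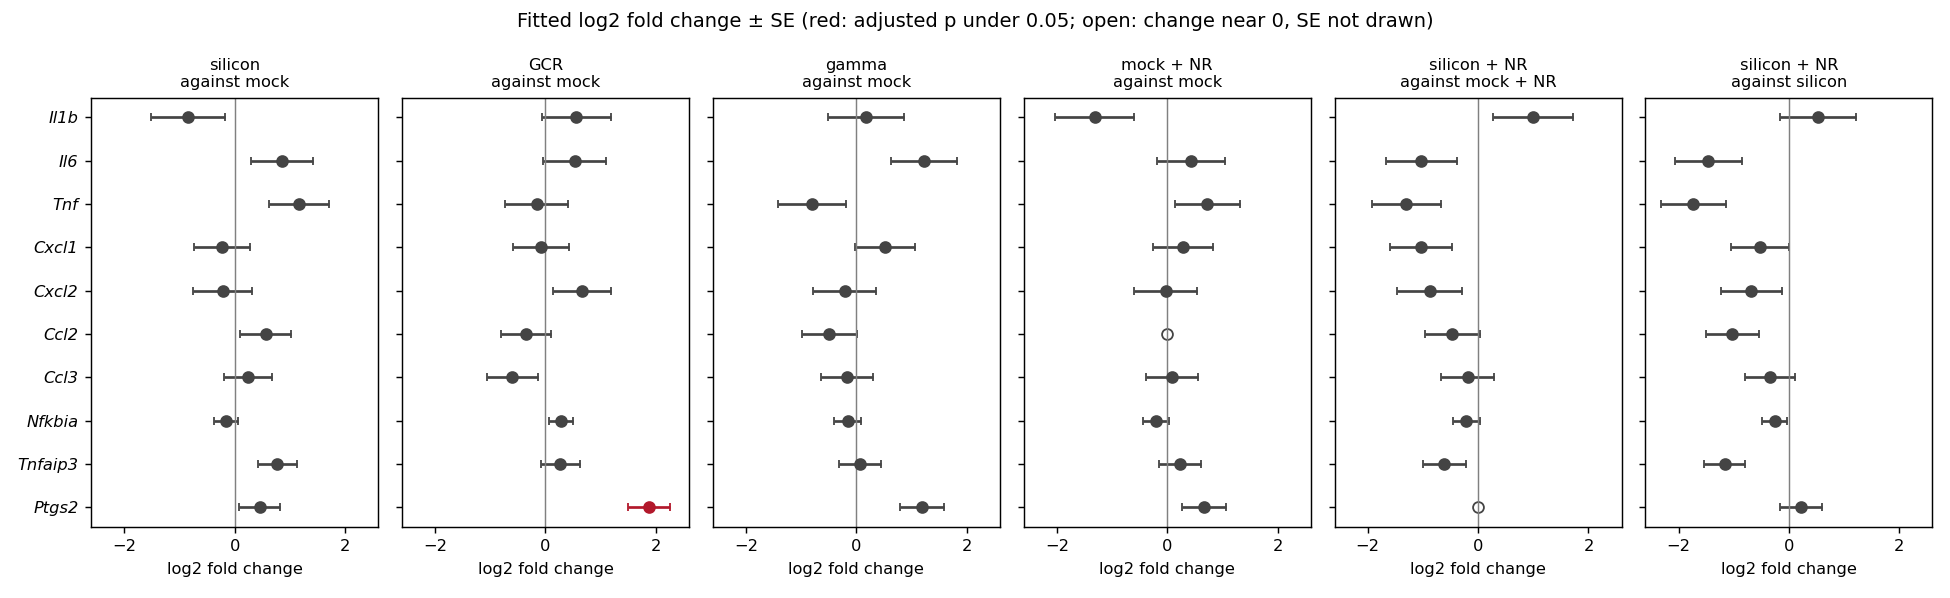
Fitted log2 fold change with its SE for the 10 genes in 6 comparisons of group pairs. The 1 red point is Ptgs2 in GCR against mock (1.87, SE 0.38), and the open circles are changes so near 0 that no SE is drawn.

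Counted over the 10 genes, 0 passed edgeR's quasi-likelihood test in silicon against mock (0% of all genes passed). At an unadjusted p under 0.05 stood 2 of the 10, beside 12.9% of all genes, and DESeq2 and limma voom also called 0 of the 10 (433 and 1 genes of the whole table). In gamma against mock 0 of 10 passed, against 0.0295% of all genes, with 2 at an unadjusted p under 0.05 (10% of all genes), 0 by DESeq2 and 1 (Ptgs2) by limma voom. Over the whole table DESeq2 called 259 genes there and limma voom 238. These comparisons and GCR against mock share the mock libraries. In the mean of the 3 radiation kinds against mock 0 of 10 passed, against 0.0118% of all genes, with 1 at an unadjusted p under 0.05 (13.3% of all genes), 1 by DESeq2 and 0 by limma voom. DESeq2 called 188 genes of the whole table in that comparison and limma voom 5.

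In mock + NR against mock, 0 of 10 genes passed edgeR's test (0% of all genes), 0 had an unadjusted p under 0.05 (16.9% of all genes), and DESeq2 and limma voom called 0 of the 10 (591 and 994 genes of the whole table). In silicon + NR against mock + NR, 0 of 10 passed (0% of all genes), with 1 (Tnf, log2 fold change -1.30, SE 0.62) at an unadjusted p under 0.05 (2.16% of all genes) and 0 by DESeq2 and limma voom (1 and 0 genes of the whole table). Of the 10, 9 had a negative fold change there, with a median of -0.54 against -0.01 over all genes.

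In silicon + NR against silicon, 0 of 10 passed edgeR's test (0% of all genes), with 4 at an unadjusted p under 0.05 (Il6, Tnf, Ccl2 and Tnfaip3, all with negative fold changes), beside 12.8% of all genes, 0 by DESeq2 and 1 (Ccl2) by limma voom. Over the whole table DESeq2 called 353 genes there and limma voom 4207. The median log2 fold change of the 10 was -0.60, against -0.05 over all genes. The test of whether the silicon difference itself differed with and without NR called 0 of 10 genes (0% of all genes), with 3 at an unadjusted p under 0.05 (9.95% of all genes) and 0 by DESeq2 and limma voom (327 and 0 genes of the whole table). Its lowest value was that of Tnf (-2.46, SE 0.82, adjusted p = 0.177 by edgeR's quasi-likelihood test), which was -0.49 (SE 0.71) without the lymphoid-rich libraries. Without the muscle-rich libraries, which leaves 2 silicon mice, this test called Il1b (4.59, SE 1.20, adjusted p = 0.0223) and Tnf (-3.67, SE 1.06, adjusted p = 0.0364), as well as 1335 genes of the whole table. Those 2 mice were silicon replicate 1 and the lymphoid-rich replicate 3, with 3.61 and 1.94 CPM of Il1b and 1.77 and 10.7 CPM of Tnf. Lymphoid-rich mock + NR replicate 4 (6.44 CPM of Tnf) also stayed in. A fit without both kinds of library was not run.

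Between the sexes (15 females and 22 males, with the group in the model) 0 of 10 genes passed edgeR's test, against 0.0589% of all genes, with 1 at an unadjusted p under 0.05 (3.15% of all genes) and 0 by DESeq2 and limma voom (12 and 14 genes of the whole table). That gene was Il1b, with a log2 fold change of -0.98 in females against males (SE 0.44, unadjusted p = 0.0336, adjusted p = 1).

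Other genes of the pathway were read from lists of its subunits, receptors, inhibitors and targets. In GCR against mock, 2 of 15 NF-kB subunit and kinase genes rose (Rel, the c-Rel subunit, log2 fold change 0.94, SE 0.31, and Tab2, an adaptor of the TAK1 kinase, 0.81, SE 0.19) and 1 fell (Tbk1, a kinase of the interferon branch, -0.37, SE 0.11). Of 16 genes listed as other feedback inhibitors, 2 rose (N4bp1 0.72, SE 0.16, and Tnfaip2 0.89, SE 0.26). Whether Tnfaip2 inhibits NF-kB was not tested. Of 20 upstream receptor and adaptor genes, 1 rose (Ticam1, the TRIF adaptor of Toll-like receptors, 0.55, SE 0.19). None of 24 tested further NF-kB target cytokine and adhesion genes passed, with 4 at an unadjusted p under 0.05 (34.4% of all genes). The shares were 20%, 12.5%, 5% and 0%, beside the background of 16.6%.

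Of 9 genes of AU-rich mRNA decay and stress feedback, 3 rose in GCR against mock, where 16.6% of all genes passed. The Zfp36 proteins in this list bind AU-rich cytokine messages and speed their decay. The 3 were Zfp36 (tristetraprolin, 1.03, SE 0.23), its relative Zfp36l1 (1.14, SE 0.22) and Ier2 (0.76, SE 0.24). Beside the same 16.6%, 7 of 11 tested immediate early genes rose, among them Egr1 (2.10, SE 0.38), Egr3 (2.53, SE 0.52), Fosb (2.76, SE 0.63) and Fosl2 (1.03, SE 0.20). In gamma against mock 1 immediate early gene rose, Egr1 (2.70, SE 0.41), where 0.0295% of all genes passed. That call was lost without the muscle-rich libraries and in the fit restricted to the compared groups, where 0 genes of the whole table passed in this comparison. None of the 11 other prostaglandin pathway genes and none of 11 cytokine and chemokine receptor genes passed in GCR against mock, with 2 at an unadjusted p under 0.05 in each list, beside the same 34.4%. Each call named here in GCR against mock was lost without the muscle-rich and without the high-Rn45s libraries, where 0 genes of the whole table passed.

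Leukocyte marker lists were also read in GCR against mock. None of the 9 tested neutrophil, 12 monocyte and interstitial macrophage, 12 alveolar macrophage, 9 T cell and 8 B cell markers passed, and none had an unadjusted p under 0.05 (34.4% of all genes). In silicon against mock 0 genes of the whole table passed edgeR's test (2185 at an unadjusted p under 0.05; 433 by DESeq2 and 1 by limma voom), so none of these lists did. In silicon + NR against silicon 0 passed as well (2171 at an unadjusted p under 0.05; 353 by DESeq2 and 4207 by limma voom).

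From mouse to mouse within groups, several of the 10 genes varied together and with marker lists of leukocytes, endothelium, muscle and squamous epithelium. Levels were taken as log2(CPM + 0.5) less the group mean. Over all 37 libraries, 13 of 45 pairs of genes were correlated at an adjusted p under 0.05, and 44 of 100 pairs of a gene with a marker list. Since the lymphoid-rich libraries form a cluster of their own, values are given over the other 34, where 13 of 45 gene pairs (all positive) and 42 of 100 gene and list pairs (36 positive and 6 negative) passed by a permutation test with 100000 draws. All points share library depth and the mix of tissue in each piece, and the part of these in the relations was not tested.

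Il1b had the highest correlation in this family, with the neutrophil markers (r = 0.922, Spearman's rho = 0.858, permutation p = 1e-05, the smallest these draws give, adjusted p = 0.0002). Without the 2 libraries farthest from the median it was 0.881, and over the 22 libraries that were neither lymphoid-rich nor muscle-rich it was 0.914. The library with the highest Il1b (GCR replicate 1, 50.4 CPM) also had the highest neutrophil marker sum, 1361 CPM, against a median of 52.8 CPM over all libraries. The 3 mock libraries with most Il1b (22.2, 16.97 and 23.8 CPM) had neutrophil sums of 523, 370 and 456 CPM. Cxcl2 followed Il1b (r = 0.688, rho = 0.676, permutation p = 2e-05, adjusted p = 0.00045) and the neutrophil markers (r = 0.604, rho = 0.476, permutation p = 0.00018, adjusted p = 0.0018), with 0.601 and 0.493 without the 2 farthest libraries and 0.62 and 0.50 over those 22.

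Tnfaip3 varied with the markers of monocytes and interstitial macrophages (r = 0.818, rho = 0.814, permutation p = 1e-05, adjusted p = 0.0002; 0.777 without the 2 farthest libraries). It varied also with the T cell markers (r = 0.767, rho = 0.695, permutation p = 1e-05, adjusted p = 0.0002; 0.733 without the 2 farthest). Its relations with alveolar macrophage markers (r = 0.690, rho = 0.720, adjusted p = 0.000286 by permutation; 0.647 without the 2 farthest) and endothelial markers (r = 0.684, rho = 0.699, adjusted p = 0.000286; 0.714 without them) passed as well. So did those with B cell markers (r = 0.594, rho = 0.463, adjusted p = 0.00207 by permutation; 0.523 without them) and mast cell and basophil markers (r = 0.569, rho = 0.596, adjusted p = 0.00281; 0.543 without them).

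The cytokine gene Tnf varied with the T cell markers (r = 0.556, rho = 0.599, permutation p = 0.00055, adjusted p = 0.00306; 0.582 without the 2 farthest) and with the B cell markers (r = 0.550, rho = 0.563, permutation p = 0.00048, adjusted p = 0.00282; 0.549 without the 2 farthest).

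Over the 22 libraries that were neither lymphoid-rich nor muscle-rich, the r of Tnfaip3 was 0.779 with endothelial, 0.745 with monocyte and interstitial macrophage, 0.737 with T cell, 0.717 with B cell, 0.610 with alveolar macrophage and 0.577 with mast cell and basophil markers. That of Tnf was 0.441 with B cell and 0.36 with T cell markers. Over all 37 libraries the r of Tnfaip3 with endothelial markers was 0.322 and did not pass (adjusted p = 0.0992 by permutation). Its other relations named here passed over all 37. With TMM-scaled levels (log2 TMM CPM) over all 37, its r with endothelial (0.135), mast cell and basophil (0.283) and alveolar macrophage markers (0.402) did not pass.

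**Figure D3:**
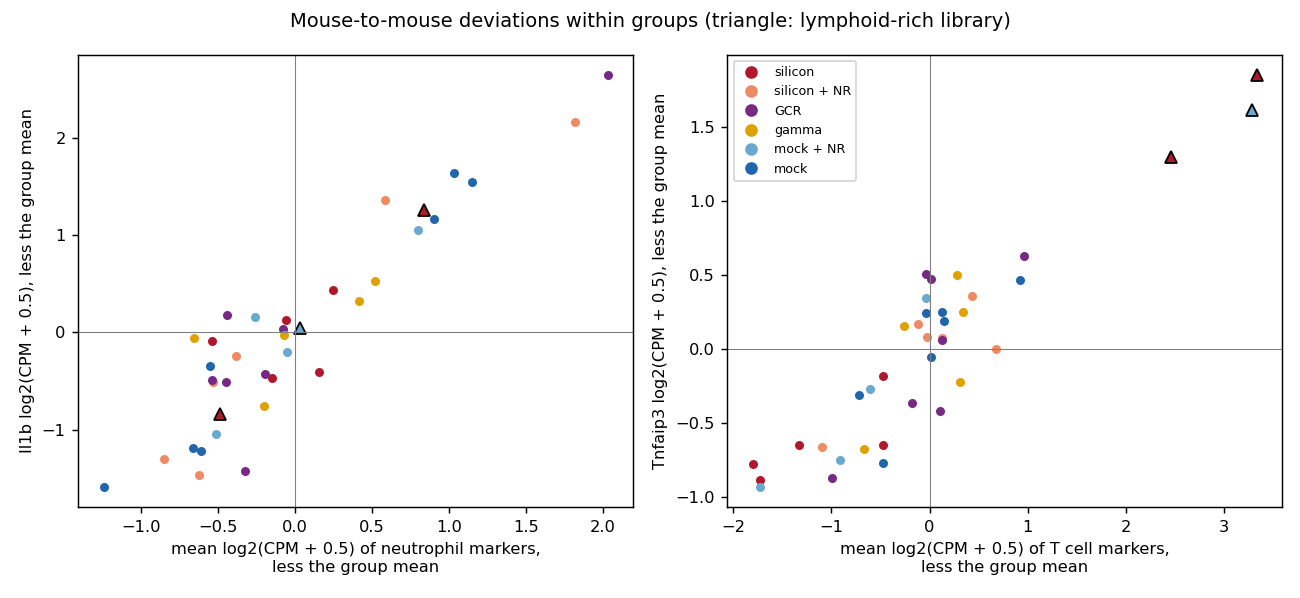
Deviation of each library from its group mean in log2(CPM + 0.5), for Il1b against the neutrophil markers (left) and Tnfaip3 against the T cell markers (right), with triangles for the 3 lymphoid-rich libraries. Il1b and the neutrophil markers are high in the same libraries (r = 0.922 over the 34 circles, centred without the triangles), and the triangles lie at the top right of the T cell plot.

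Nfkbia varied with Cxcl2 (r = 0.688, rho = 0.631, permutation p = 1e-05, adjusted p = 0.00045; 0.564 without the 2 farthest libraries) and with Il1b (r = 0.652, rho = 0.634, permutation p = 3e-05, adjusted p = 0.00045; 0.601 without them). It varied also with Ptgs2 (r = 0.581, rho = 0.606, permutation p = 0.00028, adjusted p = 0.00307; 0.584 without them). The chemokine pair Cxcl1 and Ccl2 had r = 0.576 (rho = 0.540, permutation p = 0.00041, adjusted p = 0.00307; 0.551 without them), and Cxcl1 and Cxcl2 had r = 0.574 (rho = 0.511, permutation p = 0.00037, adjusted p = 0.00307; 0.522 without them). Over the 22 libraries these r were 0.444 (Nfkbia and Cxcl2), 0.615 (Nfkbia and Il1b), 0.619 (Nfkbia and Ptgs2), 0.831 (Cxcl1 and Ccl2) and 0.512 (Cxcl1 and Cxcl2). Over all 37 libraries Nfkbia with Ptgs2 had r = 0.294 and did not pass (adjusted p = 0.152 by permutation). The other pairs named here passed over all 37 as well. The pairs that passed over the 34 libraries joined inhibitors to chemokines and cytokines as well as chemokines to each other.

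Nfkbia had its highest marker relation with the endothelial list (r = 0.736, rho = 0.764, permutation p = 1e-05, adjusted p = 0.0002; 0.679 without the 2 farthest, 0.388 over the 22 libraries). With the alveolar macrophage list it had r = 0.726 (rho = 0.716, permutation p = 1e-05, adjusted p = 0.0002). That r was 0.671 without the 2 farthest and 0.452 over the 22 libraries. Over all 37 libraries the r of Nfkbia was 0.467 with the endothelial and 0.639 with the alveolar macrophage list, and both passed. With TMM-scaled levels the endothelial r was 0.313 and did not pass (adjusted p = 0.129 by permutation), while the alveolar macrophage r of 0.512 did.

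Ptgs2 varied inversely with the squamous epithelium markers (r = -0.588, rho = -0.668, permutation p = 0.00021, adjusted p = 0.00191; -0.574 without the 2 farthest) and the skeletal muscle markers (r = -0.536, rho = -0.536, permutation p = 0.00104, adjusted p = 0.004; -0.495 without them). It varied with the alveolar macrophage markers (r = 0.550, rho = 0.549, permutation p = 0.00088, adjusted p = 0.00383; 0.557 without them) and with the endothelial ones (r = 0.446, rho = 0.475, permutation p = 0.0084, adjusted p = 0.0247; 0.436 without them). Over the 22 libraries the squamous and muscle values of Ptgs2 were -0.495 and -0.573, and the alveolar macrophage and endothelial values were 0.290 and 0.199. With TMM-scaled levels over all 37 libraries the squamous and muscle values of Ptgs2 were -0.385 and -0.398. Those values did not pass (adjusted p = 0.0589 and 0.0556 by permutation), while the alveolar macrophage (0.494) and endothelial (0.443) values did. The other 4 negative relations that passed were those of Nfkbia and Ccl3 with the squamous markers (-0.637 and -0.549) and with the muscle markers (-0.544 and -0.474), with adjusted p by permutation between 0.000875 and 0.0151. Over the 22 libraries these 4 values were -0.379, -0.229, -0.320 and -0.059.

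**Figure D4:**
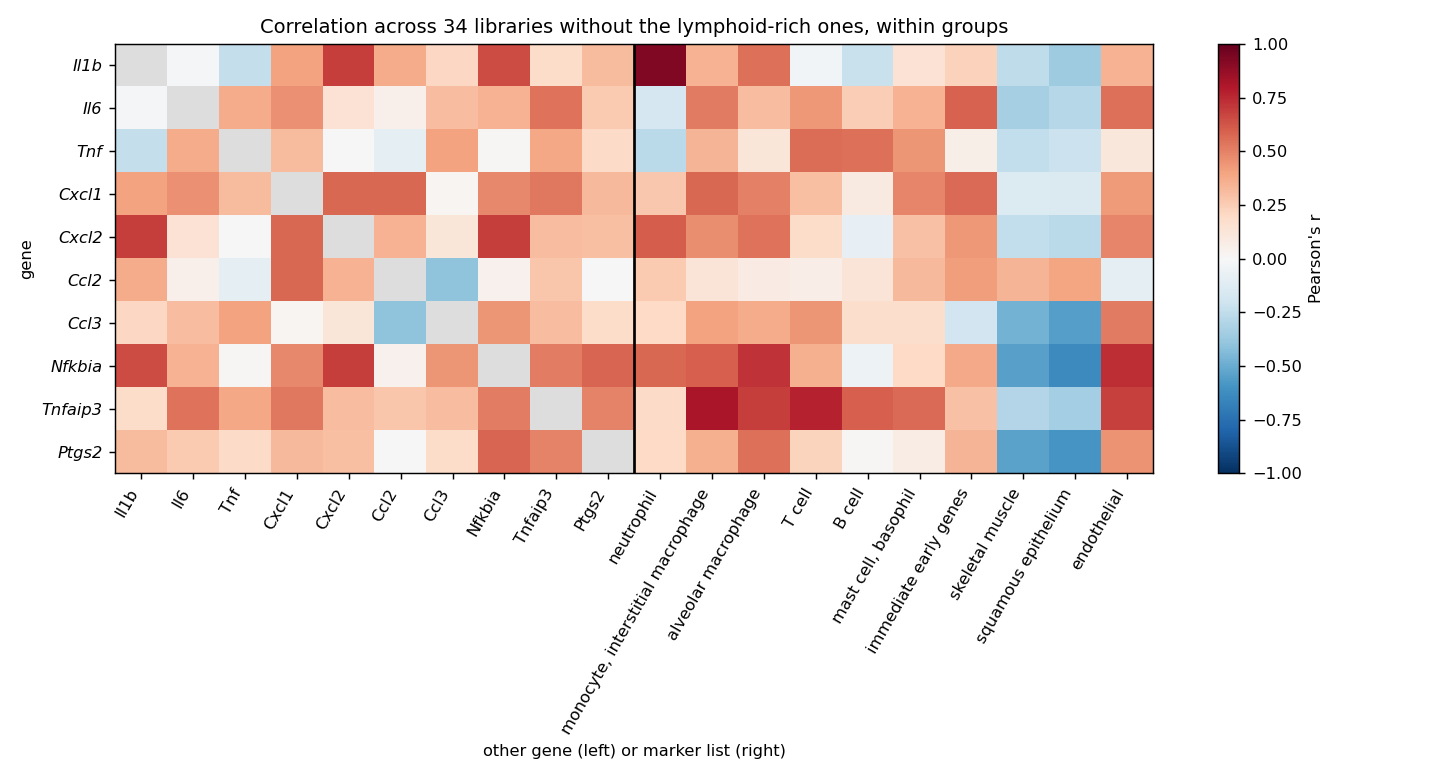
Pearson's r of each of the 10 genes with the others (left of the line) and with 10 marker lists (right), over 34 libraries within groups. The deepest red is Il1b with the neutrophil markers (0.922), followed by Tnfaip3 with the monocyte and interstitial macrophage markers (0.818).

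The genes most like each member were found by Spearman's rho over all 37 libraries, group differences included, among 11910 genes of at least moderate level. Il1b was most like the neutrophil genes S100a9 (0.872), S100a8 (0.830) and Retnlg (0.770). Ptgs2 was most like Areg, the EGFR ligand amphiregulin (0.871), followed by Ptgs2os2 (0.839) and Fam221a (0.839). Nfkbia was most like Inpp5d (0.907), Tnfaip3 most like Nrros (0.883) and Ccl2 most like Dctpp1 (0.833). For Il6, Tnf, Cxcl1, Cxcl2 and Ccl3 the highest values were lower, with Cyr61 (0.739), Pla2g2d (0.710), Serping1 (0.722), Timp1 (0.699) and Dok1 (0.719).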

How the data were processed

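The authors deposited raw counts (whole numbers of reads for each symbol) of 37 lung libraries. Per the labels' protocols, RNA was extracted with Trizol and libraries were made with SMART-seq v4 and Nextera XT, which leaves strand unmarked. The tools named in the submitters' processing notes are HTSeq 0.13.5, STAR 2.5.2, Trimmomatic 0.36, MultiQC 1.12 and FastQC 0.11.4, on build mm10, with no settings or annotation stated. Counts without molecular identifiers are not independent molecules. Replicates are separate mice, as labelled.

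From these counts, CPM per library and edgeR 4.0.16 (R 4.3.3) quasi-likelihood tests were computed, with TMM factors, filterByExpr by group (16977 genes), a model of group and sex over all 37 libraries, and Benjamini-Hochberg adjustment at 0.05. The SE is the fold change divided by the root of F. The tests were also run on simulated counts. Those counts lacked the muscle, lymphoid, heart and Rn45s differences between libraries, so the simulation does not cover their effect on the calls. DESeq2 1.42.0, limma 3.58.1 (voom with sample quality weights), RLE factors, no filter, no sex term, a fit restricted to the compared groups, and the omission of single libraries were alternatives. Fits without the muscle-rich, high-Rn45s, lymphoid-rich or heart-rich libraries, and Spearman's rho for the marker relations, were added after seeing the data. Relations were tested over samples with 100000 two-sided permutations.

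The 10 genes and 21 lists were chosen with earlier results of these data known. All 10 genes are named; from the other lists, up to 4 called genes of smallest p per comparison, or up to 2 that did not pass, could be named, and the 3 genes of highest Spearman's rho to each member. Coordinates are from GENCODE M21 (GRCm38, the assembly of mm10), and promoter letters from RefSeq (GRCm38.p6), printed only upstream of the GENCODE start.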

Additional observations from a re-analysis of the deposited data

Results flagged for a closer look

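In each group of 4 to 10 libraries, the highest or lowest library was compared with the rest by Dixon's test at the 95% level, for each of the 10 genes. Of 60 such groups, 6 held a library that stood apart. For normal values chance gives about 1 in 20, or 3. The test used CPM without a log scale, and the 10 genes share the same libraries, so the 2 counts cannot be compared strictly. Il1b was 50.4 CPM in GCR replicate 1, against 2.53 to 8.76 CPM in the other GCR libraries. Il6 was 0.793 CPM in silicon + NR replicate 6, against 0.0320 to 0.276 CPM in the others, and 0.596 CPM in mock replicate 7, against 0.219 to 0.369 CPM. Tnf was 6.44 CPM in mock + NR replicate 4, a lymphoid-rich library, against 0.618 to 1.92 CPM in the others. Cxcl2 was 1.34 CPM in mock + NR replicate 5, against 0.113 to 0.442 CPM. Ccl2 was 6.64 CPM in silicon + NR replicate 1, against 1.42 to 3.24 CPM. All 6 were the highest of their group.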

How the results depend on the processing

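No paired analysis was possible because the replicate numbers follow accession order and pair no mice. The number of the 10 genes called was the same under each alternative in silicon against mock, mock + NR against mock, silicon + NR against mock + NR and female against male. In GCR against mock it was 0 without the muscle-rich and 0 without the high-Rn45s libraries, against 1 otherwise, and leaving out each library gave 1 each time (Ptgs2, log2 fold change 1.59 to 2.08, adjusted p 0.00119 to 0.0203 by edgeR); the count over all genes ran from 501 to 4087. Limma voom called 1 in gamma against mock and 1 in silicon + NR against silicon, and DESeq2 called 1 in the mean of the 3 radiation kinds, against 0. Over the whole table these fits called 238, 4207 and 188 genes, in that order. The interaction called 2 without the muscle-rich libraries, against 0, in a fit whose silicon group was replicate 1 and the lymphoid-rich replicate 3. The 44 relations with marker lists became 23 on log2 TMM CPM (48 by Spearman's rho), and the 13 among members 9 (17 by rho).

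Without the lymphoid-rich libraries the sign turned for Tnf (-0.10) and Tnfaip3 (-0.20) in silicon against mock, Tnf in mock + NR against mock (-0.020, against 0.73) and Tnfaip3 in the interaction (0.16). Without the muscle-rich libraries Ptgs2 in silicon against mock was -0.33 (2 silicon and 3 mock libraries left), and Ccl2 in GCR against mock was 0.10 (0.19 without the high-Rn45s libraries). With limma voom Il1b in silicon + NR against silicon was -0.11 and Ccl3 in the mean of the radiation kinds 0.11. None of these values passed a test, and the cause was not tested. Low counts limit Il6, Cxcl2, Cxcl1 and Ccl3, each with 2 reads or fewer in at least 1 library. They also limit Tnf and Ccl2 in single libraries, where the lowest counts were 4 and 3 reads.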
